A study of Mus musculus with 9 samples.

Results

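Inhibin and activin subunits and the antagonists that bind activins or bone morphogenetic proteins (BMPs) were followed through the first 48 h of spermatogonial stem cell (SSC) differentiation in vitro. The set holds 9 of the 46078 genes in the count data and was chosen by gene function: the subunits Inha, Inhba and Inhbb, the activin binders Fst and Fstl3, the BMP binders Nog, Chrd and Grem1, and the membrane antagonist Bambi. All libraries came from EGFP-SSCs, 1 mouse SSC line of genotype WT that carries green fluorescent protein, and each group held 3 libraries. The 0 h group was in normal culture on feeder layers of mitomycin C-treated mouse embryonic fibroblasts, in medium with glial cell line-derived neurotrophic factor, epidermal growth factor and basic fibroblast growth factor. The 24 h and 48 h groups had been differentiated for those times by co-culture with an equal part of testicular somatic cells from young busulfan-exposed mice. That medium held BMP-4 and BMP-7, activin A, retinoic acid, testosterone, follicle-stimulating hormone and bovine pituitary extract. Cells with EGFP fluorescence were sorted from these groups, and poly-A RNA of all libraries was sequenced. Added activin and BMP proteins give no reads, so all values below are of transcripts.

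Activins are dimers of β subunits, and inhibins pair the α subunit encoded by Inha with a β subunit encoded by Inhba or Inhbb. Activins signal through type II and type I receptors to SMAD2 and SMAD3, and inhibins compete for the type II receptors. Follistatin, the product of Fst, and the related protein of Fstl3 bind activins and keep them from receptors, whereas noggin, chordin and gremlin 1 bind BMPs, which signal to SMAD1, SMAD5 and SMAD9. Bambi encodes a membrane protein that resembles a type I receptor without a kinase domain. In the testis, Sertoli cells are the main source of inhibin, and gonocytes and spermatogonia respond to activin and BMP ligands.

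To set the sequences beside the transcripts, the 250 bases before the transcription start are shown for 5 members that changed and whose RefSeq (GRCm38.p6) window lies before the annotated gene, apart from the last 2 bases of the Fstl3 window (6 of the 9 members had an entry). They are read 5′ to 3′ on the gene's strand, from chr13:16011601-16011850 (+) for Inhba, chr1:119422249-119422498 (-) for Inhbb, chr10:79777024-79777273 (+) for Fstl3, chr16:20732877-20733126 (+) for Chrd and chr2:113758649-113758898 (-) for Grem1. Capitals mark every match, on either strand, to the TATA box (letters TATAAA), the CCAAT box (letters CCAAT), the cyclic AMP response element (letters TGACGTCA), the SMAD element core (letters CAGAC), the GC-rich SMAD element (letters GGCGCC) or the nuclear receptor element core (letters AGGTCA).
Inhba: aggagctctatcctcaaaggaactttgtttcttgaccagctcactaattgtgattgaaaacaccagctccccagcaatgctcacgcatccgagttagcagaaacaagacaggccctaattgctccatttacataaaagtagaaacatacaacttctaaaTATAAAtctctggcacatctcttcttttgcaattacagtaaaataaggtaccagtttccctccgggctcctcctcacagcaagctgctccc
Inhbb: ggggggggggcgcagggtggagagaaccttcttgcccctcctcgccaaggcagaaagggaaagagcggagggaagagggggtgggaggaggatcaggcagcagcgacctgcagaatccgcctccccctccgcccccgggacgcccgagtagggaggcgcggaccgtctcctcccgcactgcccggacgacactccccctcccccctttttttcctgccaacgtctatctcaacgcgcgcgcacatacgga
Fstl3: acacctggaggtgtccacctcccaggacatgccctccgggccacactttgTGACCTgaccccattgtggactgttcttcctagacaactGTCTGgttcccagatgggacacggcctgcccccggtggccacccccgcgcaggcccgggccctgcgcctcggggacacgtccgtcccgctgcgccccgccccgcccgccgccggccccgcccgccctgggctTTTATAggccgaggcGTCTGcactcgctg
Chrd: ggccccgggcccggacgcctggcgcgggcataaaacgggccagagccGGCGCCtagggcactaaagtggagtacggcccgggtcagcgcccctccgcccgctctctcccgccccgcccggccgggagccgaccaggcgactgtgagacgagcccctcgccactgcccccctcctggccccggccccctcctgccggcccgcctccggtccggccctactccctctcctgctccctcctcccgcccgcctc
Grem1: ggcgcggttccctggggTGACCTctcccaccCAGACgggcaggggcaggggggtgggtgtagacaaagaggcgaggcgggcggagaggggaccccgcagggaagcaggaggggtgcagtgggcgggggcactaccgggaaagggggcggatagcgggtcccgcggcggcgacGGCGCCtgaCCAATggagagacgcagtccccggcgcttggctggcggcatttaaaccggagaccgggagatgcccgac

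The Inhba window held 1 TATA box between 86 and 91 bases before the start, and its GC content of 43.2% was the only one of the 5 below the median of all 32851 RefSeq windows, 52.4%. The other printed windows had GC contents of 68.0% (Inhbb), 71.2% (Fstl3), 78.0% (Chrd) and 72.0% (Grem1). Fstl3 held 2 SMAD cores, 1 TATA box and 1 nuclear receptor core, all on the reverse strand. The Grem1 window held 1 match each to the CCAAT box, the GC-rich SMAD element, the SMAD core and the nuclear receptor core. Chrd held 1 GC-rich SMAD element, and Inhbb held none of the 6 motifs in this window. No printed matches overlapped. Over all windows, the TATA box was present in 12.37%, the CCAAT box in 33.85%, the cyclic AMP element in 1.55%, the SMAD core in 42.19%, the GC-rich element in 9.59% and the nuclear receptor core in 14.02%. A match describes letters and not a bound site.

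Library totals ran from 16825251 to 22201892 counts. Counts of replicates differed by more than counting noise (chi-square over its degrees of freedom from 7.13 to 81.4), most of all among the 0 h libraries (35.5 to 81.4). Levels are CPM, in which the counts of each library are scaled to a common total after TMM normalization, a correction for differences in composition. A member was called higher or lower at an adjusted p of up to 0.05 in the quasi-likelihood test of edgeR, Benjamini-Hochberg adjusted over all genes tested. Germ cell markers were abundant in every group: the 8 listed summed to 1810 to 2830 CPM at 0 h, 2140 to 2360 at 24 h and 2130 to 2350 at 48 h. Ddx4, a germ cell RNA helicase, stood at 357 ± 129 (SD, n = 3), 359 and 382 CPM, and Dazl, a germ cell RNA-binding protein, at 867 ± 466, 728 ± 117 and 766 ± 125 CPM. Summed levels of Sertoli, Leydig, myoid and stromal markers were higher in the sorted cells after co-culture. The 12 Sertoli markers summed to 163 to 182 CPM at 0 h, 201 to 265 at 24 h and 289 to 310 at 48 h, the 7 Leydig markers to 4.58 to 6.99, 28.7 to 44.7 and 29.1 to 37.3 CPM, and the 6 peritubular myoid markers to 13.7 to 15.6, 146 to 207 and 263 to 321 CPM. The 10 stromal markers, led by Col1a1 of type I collagen, summed to 335 to 437, 2220 to 2590 and 3040 to 3370 CPM. At 0 h, Fshr, Insl3, Hsd3b1 and Tcf21 of these lists were at 0 in every library, and at 24 h Lhcgr was. Endothelial markers (6 genes, with Emcn at 0 in the 0 h libraries) summed to 43.4 to 47.5 CPM at 0 h against 13.1 to 13.6 at 48 h, and macrophage markers (6 genes, with C1qa at 0 in both groups) to 15.3 to 17.5 against 6.44 to 9.16. Kdr and Pecam1 held most of the endothelial sum at 0 h (means 24.6 and 15.7 CPM), and Cd68 most of the macrophage sum (15.7 CPM). At 48 h against 0 h, 2 of 5 endothelial markers tested were called higher and 2 lower. Of 3 macrophage markers tested, 1 was called lower, and their median log2 fold change was 1.17. Over all genes tested, 13.0% were called higher and 18.5% lower. The part of these other cells in the results below was not tested, and in such bulk samples a different number of cells of a type and a different amount of RNA per cell cannot be told apart.

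Following 24 h of co-culture, Inha, Inhba and Fstl3 were higher and Inhbb, Fst and Chrd were lower than at 0 h, so 6 of the 9 members changed. Among all 17592 genes tested, 25.5% were called in this comparison, 11.4% higher and 14.2% lower. At 48 h against 0 h, Grem1 joined the members that were higher and 7 of 9 were called, 4 higher and 3 lower, against 31.6% of all 17755 genes tested (13.0% higher and 18.5% lower). From 24 h to 48 h, 3 of 9 were called, namely Grem1 upward and Fstl3 and Chrd downward, against 21.3% of 17499 genes (8.61% higher and 12.7% lower). The libraries of the groups did not overlap for 6, 7 and 7 members, against 43.4%, 48.3% and 39.6% of all genes tested. Of the 7 from 24 h to 48 h, 4 were not called (Inhba, Inhbb, Fst and Bambi). With members moving both ways, their median log2 fold change was -0.01, 0.29 and 0.22 in the 3 comparisons, beside 0.01, 0.02 and -0.01 for all genes.

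**Figure D1:**
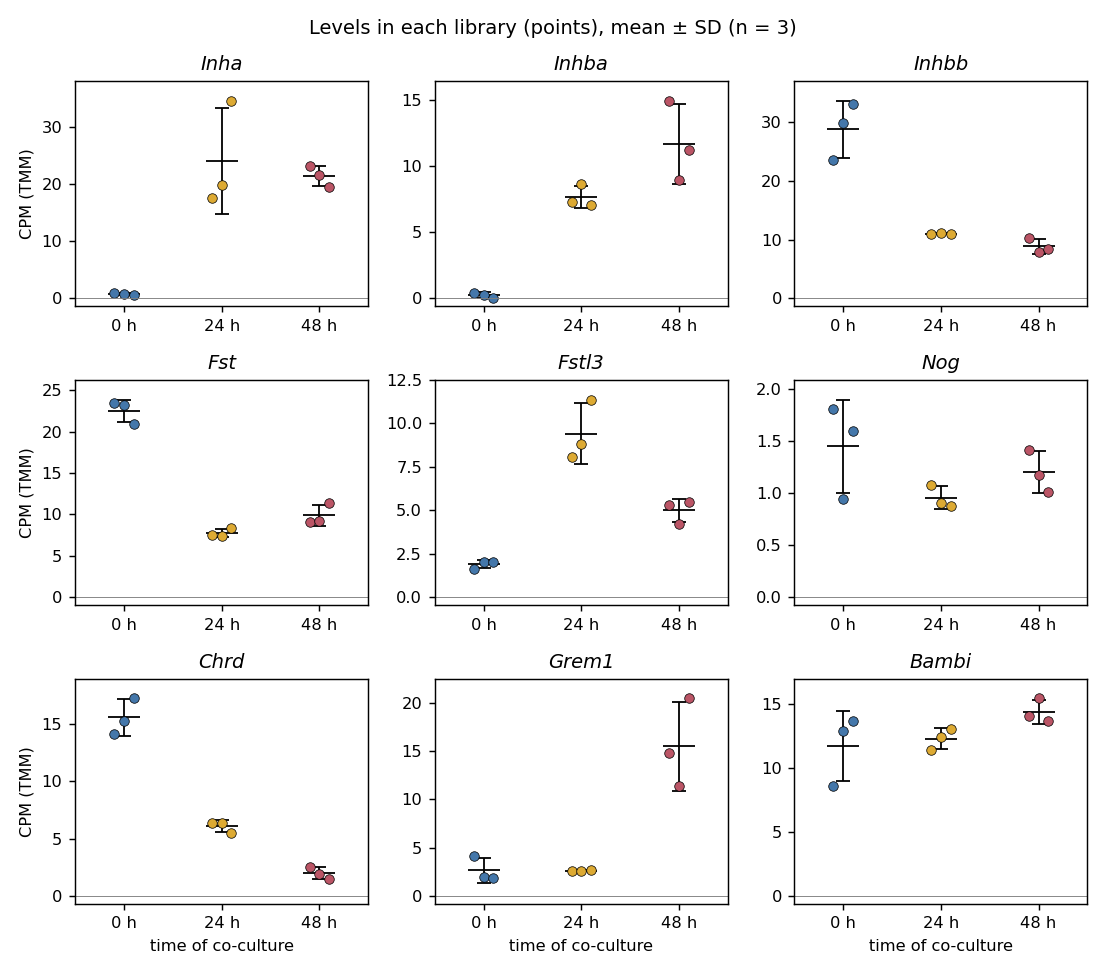
Level of each member in CPM (y axis, a separate linear scale for each gene) at 0 h, 24 h and 48 h, with points for the 3 libraries of each group and bars for the mean and SD. Inha and Inhba stood below 1 CPM at 0 h and above 7 CPM later, Chrd fell at both steps, Fstl3 was highest at 24 h, and Grem1 rose at 48 h.

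Inha, the inhibin α subunit (ENSMUSG00000032968; chr1:75507077-75510366, + strand, GRCm38), was low in undifferentiated cells, with 11 to 17 counts in a library. It stood at 0.935, 0.843 and 0.548 CPM in the 0 h libraries, at 17.7, 19.9 and 34.6 CPM at 24 h, and at 23.1, 21.6 and 19.6 CPM at 48 h. All co-culture libraries were far above all 0 h libraries, and replicate 3 at 24 h was the highest. The rise was 31.3-fold at 24 h (log2 fold change 4.97, SE 0.35, edgeR adjusted p = 9.9e-05) and 27.7-fold at 48 h (4.79, SE 0.23, adjusted p = 1.61e-05). From 24 h to 48 h the log2 difference was -0.18 (95% interval -0.66 to 0.31, edgeR adjusted p = 0.59), and without replicate 3 at 24 h it was 0.20. In that library the Sertoli hormone gene Amh was also highest, at 8.15 CPM against 3.93 and 5.29 CPM in the other 24 h libraries. Unlike Inha, Amh then fell, with group means of 0.133 CPM at 0 h, 5.79 CPM at 24 h and 0.828 CPM at 48 h.

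The β subunits moved in opposite directions. Inhba, which encodes the subunit of activin A (ENSMUSG00000041324; chr13:16011851-16031621, + strand), had 7, 5 and 0 counts in the 0 h libraries, and a count of 0 allows up to 3. Its levels were 7.31, 8.66 and 7.08 CPM at 24 h and 15.0, 8.99 and 11.2 CPM at 48 h. Every co-culture library lay above every 0 h library, and every 48 h library above every 24 h library. The log2 fold change was 5.12 (SE 0.61, edgeR adjusted p = 0.00103) at 24 h and 5.72 (SE 0.63, adjusted p = 0.000575) at 48 h against 0 h. These folds rest on few 0 h counts: without replicate 1 at 0 h they were 5.90 and 6.49, and without replicate 3 at 0 h they were 4.54 and 5.13. The step from 24 h to 48 h, a 1.51-fold difference, missed the threshold (log2 0.60, SE 0.19, edgeR adjusted p = 0.0513) and passed it without replicate 2 at 48 h (0.76, adjusted p = 0.0086, against up to 0.156 with other libraries left out).

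Inhbb, which encodes the subunit of activin B (ENSMUSG00000037035; chr1:119415465-119422248, - strand), fell where Inhba rose. Its levels were 23.6, 29.8 and 33.1 CPM at 0 h, 10.9, 11.1 and 10.9 CPM at 24 h and 10.3, 7.90 and 8.40 CPM at 48 h. Each group lay wholly below the one before it. The fall was 2.60-fold at 24 h (log2 fold change -1.38, SE 0.15, edgeR adjusted p = 0.000676) and 3.26-fold at 48 h against 0 h (-1.70, SE 0.17, adjusted p = 0.000397). The further difference of -0.32 from 24 h to 48 h did not pass (SE 0.13, edgeR adjusted p = 0.108).

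The activin binders also diverged. Fst (ENSMUSG00000021765; chr13:114452290-114458951, - strand) fell at 24 h and stayed below its starting level. Its libraries held 23.4, 23.2 and 20.96 CPM at 0 h, 7.51, 7.43 and 8.30 CPM at 24 h, and 9.05, 9.25 and 11.3 CPM at 48 h. The groups did not overlap, and 24 h was the lowest. The fall was 2.88-fold at 24 h (log2 fold change -1.53, SE 0.13, edgeR adjusted p = 0.000212) and 2.28-fold at 48 h (-1.19, SE 0.14, adjusted p = 0.000816), and the difference of 0.34 between 24 h and 48 h did not pass (SE 0.14, adjusted p = 0.103).

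Fstl3 (ENSMUSG00000020325; chr10:79777272-79782630, + strand) was highest at 24 h. It stood at 1.62, 2.03 and 2.04 CPM at 0 h, 8.05, 8.82 and 11.4 CPM at 24 h, and 5.29, 4.21 and 5.46 CPM at 48 h. All 3 groups were separate, and 48 h lay between the others. Fstl3 rose 4.97-fold by 24 h (log2 fold change 2.31, SE 0.22, edgeR adjusted p = 0.000317) and then fell 1.90-fold to 48 h (-0.93, SE 0.18, adjusted p = 0.00646), ending 2.61-fold above 0 h (1.39, SE 0.22, adjusted p = 0.00294). The gene Prss57 on the opposite strand overlaps 47.3% of the Fstl3 exon bases, and the use of strand in the counting is not given in the sources used here. Prss57 itself held 0 to 8 counts in every library.

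BMP binders differed in course. Chrd, which encodes chordin (ENSMUSG00000006958; chr16:20733127-20742384, + strand), held 14.1, 15.3 and 17.3 CPM at 0 h, 6.33, 6.41 and 5.47 CPM at 24 h, and 2.51, 1.95 and 1.52 CPM at 48 h. It was the only member called lower at both steps, and no groups overlapped. Thpo on the opposite strand overlaps 3.82% of its exon bases. The log2 fold change was -1.34 (SE 0.16, edgeR adjusted p = 0.000851) over the first 24 h and -1.62 (SE 0.21, adjusted p = 0.0013) over the next, which together made a 7.79-fold fall (-2.96, SE 0.22, adjusted p = 9.87e-05).

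Grem1, which encodes gremlin 1 (ENSMUSG00000074934; chr2:113746164-113758646, - strand), rose late. Its levels were 4.17, 1.93 and 1.84 CPM at 0 h, 2.55, 2.62 and 2.64 CPM at 24 h, and 14.8, 11.3 and 20.4 CPM at 48 h. The 0 h and 24 h libraries overlapped, with replicate 1 at 0 h above all 24 h libraries, and all 48 h libraries lay above both groups. The rise from 24 h to 48 h was 5.90-fold (log2 fold change 2.56, SE 0.22, edgeR adjusted p = 0.000189), and against 0 h it was 5.88-fold (2.56, SE 0.38, adjusted p = 0.00227). The difference at 24 h was -0.01 (95% interval -0.85 to 0.84, edgeR adjusted p = 0.994), and without replicate 1 at 0 h it was 0.48. Of 163 windows along the transcript, 4 also matched other genes. The myoid marker Acta2, smooth muscle actin, stood highest at 48 h, with 1.98 ± 0.559, 97.9 ± 16.2 and 168 ± 21.9 CPM in the groups by time. Acta2 was already far higher at 24 h than at 0 h, when Grem1 was not called. The stromal marker Postn held 14.2, 6.00 and 5.13 CPM at 0 h, 29.6, 55.4 and 46.8 CPM at 24 h, and 140, 90.6 and 150 CPM at 48 h. Like Grem1, Postn was highest in replicate 1 at 0 h and in replicate 3 at 48 h. The source of the Grem1 reads was not tested.

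Nog and Bambi were not called in any comparison, by edgeR, by DESeq2 or under any other setting tried, and their lowest unadjusted p in edgeR was 0.0662. Nog, which encodes noggin (ENSMUSG00000048616; chr11:89300638-89302332, - strand), was low, with 17 to 32 counts in each library. Its levels were 1.81, 0.942 and 1.59 CPM at 0 h, 1.08, 0.908 and 0.878 CPM at 24 h, and 1.41, 1.17 and 1.01 CPM at 48 h, with overlapping groups. The log2 difference at 24 h was -0.58 with a 95% interval of -1.39 to 0.24, which spans both a fall of over 2-fold and no change. Bambi (ENSMUSG00000024232; chr18:3507923-3516404, + strand) stood at 8.60, 12.9 and 13.7 CPM at 0 h, 11.4, 12.4 and 13.1 CPM at 24 h, and 14.0, 15.5 and 13.7 CPM at 48 h. Its 95% intervals ran from -0.37 to 0.53 at 24 h and from -0.16 to 0.75 at 48 h against 0 h. From 24 h to 48 h its libraries did not overlap, and the interval of -0.02 to 0.45 included 0 (edgeR adjusted p = 0.166).

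**Figure D2:**
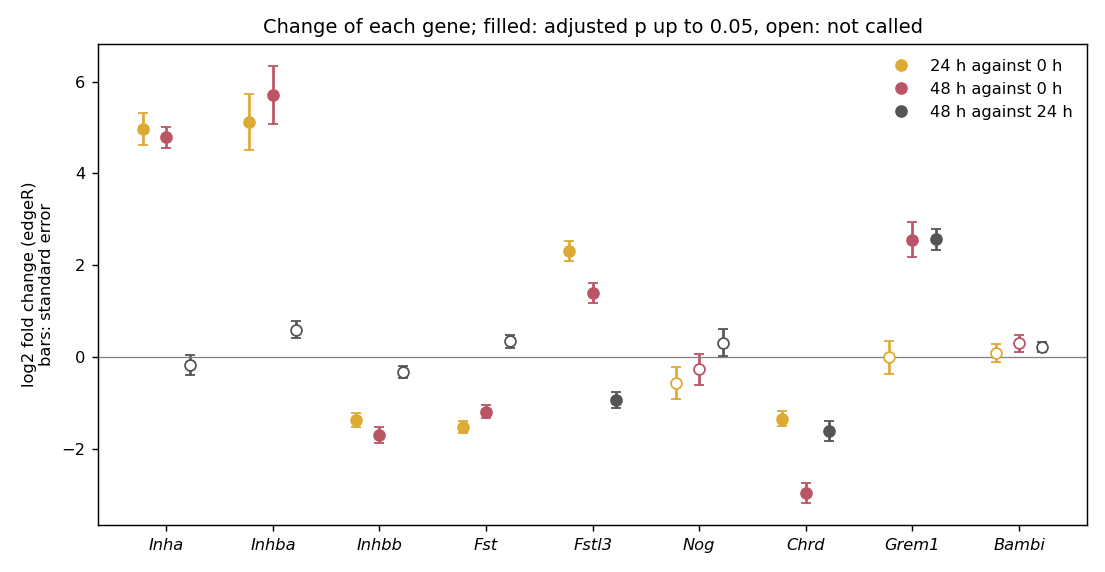
Log2 fold change (y axis) of each member (x axis) in the 3 comparisons, with bars for the standard error of edgeR's fit and open points for values that were not called. Inha and Inhba lay near 5 against 0 h, Chrd reached -2.96 at 48 h, and no value of Bambi or Nog was called.

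To compare the members with each other, counts were also divided by gene length (FPKM, here CPM divided by the kilobases of exon). At 0 h Inhbb led with 6.77 ± 1.14 FPKM (SD, n = 3), followed by Fst with 4.91 ± 0.298, then Chrd (2.49) and Bambi (2.31), whose libraries overlapped. Nog, Fstl3, Grem1 and Inha lay between 0.525 and 0.854 FPKM, each overlapping its neighbour, and Inhba was last at 0.0357. At 24 h the order had turned: Inha led at 16.3 ± 6.25 FPKM, followed by Fstl3 at 3.85 ± 0.711, Inhbb at 2.58 and Bambi at 2.42, which overlapped. Fst (1.69), Inhba (1.20) and Chrd (0.97) came next, each separate from its neighbours, while Grem1 (0.627) and Nog (0.564) overlapped at the bottom. At 48 h Inha again led, at 14.5 ± 1.21 FPKM, and Grem1 was next at 3.74 ± 1.11, overlapping Bambi at 2.83. Fst, Inhbb, Fstl3 and Inhba then followed from 2.15 to 1.84 FPKM without separation, followed by Nog at 0.707, and Chrd was last at 0.319. With the longest transcript as length, several neighbours changed places. Fst then stood first at 0 h (7.71 FPKM), above Inhbb and Bambi at 24 h (2.65) and above Bambi at 48 h (3.38). Fstl3 stood above Nog at 0 h (0.971) and above Inhbb at 48 h (2.55), and Chrd stood above Inhba at 24 h (1.38 against 1.20).

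Shares within each library, which do not depend on scaling between libraries, showed which members led at each time. Inhba made up 0 to 1.22% of the length-corrected β subunit reads at 0 h, 30.2 to 34.3% at 24 h and 43.1 to 49.3% at 48 h. The ratio of Inha to the summed β subunits was 0.0806 ± 0.0327 at 0 h, 4.35 ± 1.79 at 24 h and 3.78 ± 0.626 at 48 h. The α subunit transcript was thus scarcer than the β transcripts in undifferentiated cells and more abundant in every co-culture library. Fstl3 made up 13.7% ± 2.03 of the Fst and Fstl3 reads at 0 h, 69.3% ± 2.61 at 24 h and 48.6% ± 3.25 at 48 h. The overlap of Fstl3 with Prss57, with the counting strand not given, limits this share and the FPKM rank of Fstl3. Among the BMP binders, Chrd held 63.1% ± 9.64, 44.8% ± 1.80 and 6.98% ± 2.40, and Grem1 held 15.8% ± 6.56, 29.1% ± 2.07 and 77.6% ± 6.81. The leading BMP binder changed from Chrd at 0 h and 24 h to Grem1 at 48 h, with no overlap between 48 h and either earlier group for these shares.

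**Figure D3:**
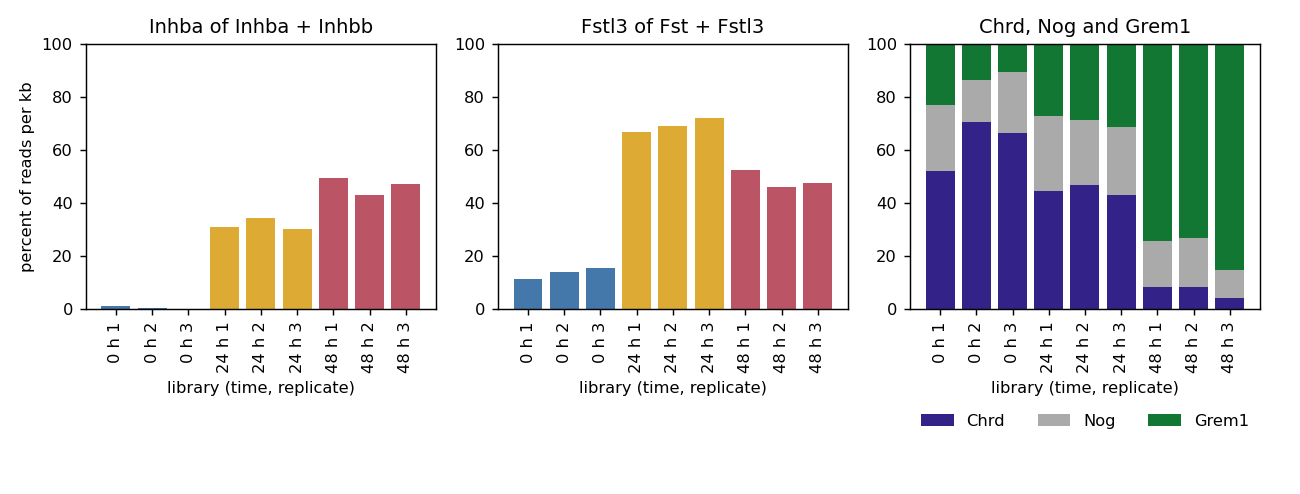
Shares of length-corrected reads within each library (y axis, percent) for the β subunits, the activin binders and the BMP binders, by library at 0 h, 24 h and 48 h. The Inhba share rose from at most 1.22% to at least 43.1%, and the Grem1 share reached 73.1 to 85.4% at 48 h.

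The rises of Inha and Inhba were read beside the marker genes of the somatic cells. Over all genes tested, 11.4% were called higher and 14.2% lower at 24 h. From 24 h to 48 h the shares were 8.61% and 12.7%. Of the Sertoli markers, 7 were called higher and 2 lower at 24 h among 11 tested. Sox9, a Sertoli transcription factor, stood at 11.7, 6.63 and 7.90 CPM. The most abundant, Ctsl, a protease also made by many other cells, stood at 143, 148 and 191 CPM. Of the Leydig markers, 3 of 4 tested were higher at 24 h, and Cyp11a1, the first enzyme of steroid synthesis, went from 0.493 to 20.8 ± 4.60 and 14.6 ± 3.19 CPM, while Cyp17a1, a later enzyme, stood at 0.207, 0.352 and 0.127 CPM. Myoid markers were higher for 5 of 6, with Myh11, smooth muscle myosin, at 2.96, 11.8 and 20.7 CPM. Stromal markers were higher for 7 of 10 and lower for 1, with Col1a1 at 157 ± 26.9, 1110 ± 111 and 1400 CPM and Col1a2 at 79.3, 696 and 944 CPM. Of the germ cell markers, 1 of 7 was called higher at 24 h. From 24 h to 48 h, when Grem1 rose, 5 of 6 myoid markers were called higher, 8 of 10 stromal markers were higher and 1 lower, and 3 of 10 Sertoli markers were higher and 1 lower. Over the same step, 2 of 7 germ cell and 2 of 5 endothelial markers were called lower, 1 of 3 macrophage markers was higher, and the median log2 fold change of the 4 Leydig markers tested was -0.15. Of the endothelial markers tested, 2 of 5 were higher and 2 lower at 24 h, with Pecam1 at 15.7, 2.65 and 3.01 CPM, Kdr at 24.6, 4.73 and 2.41 CPM, and Cdh5 at 4.09, 5.09 and 2.98 CPM. Of the macrophage markers tested, 1 of 3 was higher and 1 lower, with Cd68 at 15.7, 5.78 and 5.45 CPM and Adgre1 and Csf1r under 1.1 CPM in every group mean.

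**Figure D4:**
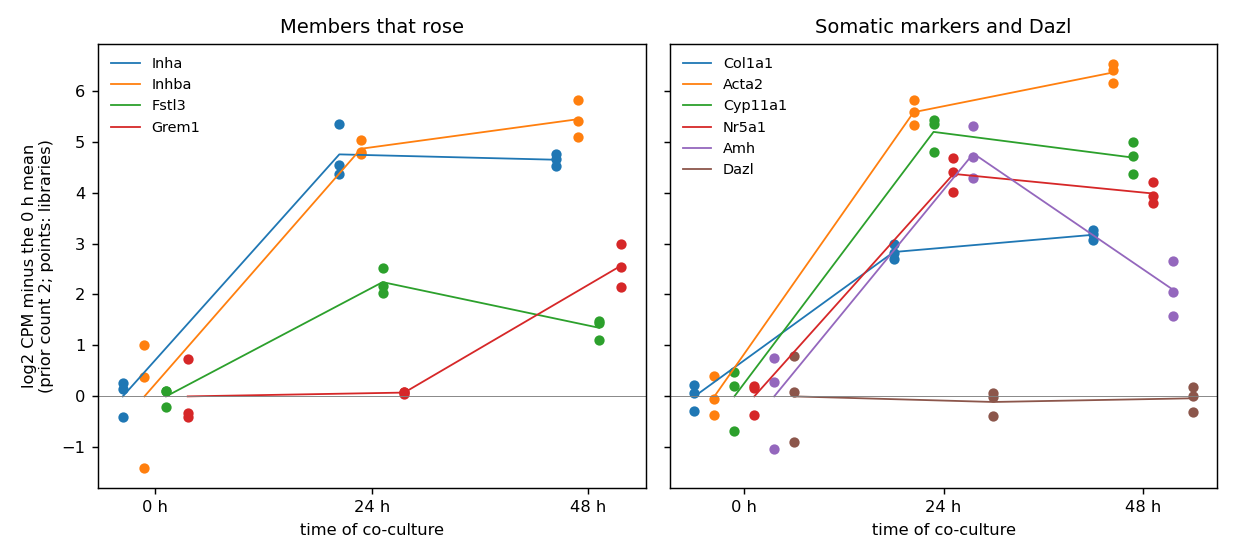
Log2 CPM minus the 0 h mean (y axis) by time of co-culture (x axis) for the 4 members that rose (left) and for somatic markers and the germ cell gene Dazl (right), with points for libraries and lines through group means. Inha and Inhba were raised at 24 h and 48 h, as were Nr5a1, Cyp11a1, Acta2 and Col1a1. Amh was highest at 24 h and lower again at 48 h. Grem1 was raised at 48 h, and the group means of Dazl stayed near 0. The markers drawn are a selection, and Nr5a1 was the gene nearest to Inha by pattern. Sox9, Pecam1, Kdr and Cd68, whose means were lower at 24 h than at 0 h, are not drawn.

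By pattern over the 9 libraries, the genes nearest to Inha among 15709 compared were Nr5a1, a transcription factor of steroid-producing and Sertoli cells, and Has2, a hyaluronan synthase, with root mean square differences of 0.31 and 0.34 in centred log2 CPM. Such likeness is a description, since all genes share the same libraries and groups. Nearest to Inhba were Ccn4 (0.53) and Cyp11a1 (0.56). Nearest to Inhbb were Aplp1 (0.087) and Pald1 (0.11), and nearest to Fst were Tnfrsf22 (0.09) and Zmat3 (0.098). Fstl3 was nearest to Tgm1 (0.20) and Tex19.2 (0.21), and Chrd to Pak6 (0.17) and Usp43 (0.26). Grem1 was nearest to Fgf10 (0.42), a growth factor of mesenchymal cells, and 4933403O08Rik (0.46). Nog was nearest to Gm6472 and Gnb4 (0.16 each), and Bambi to Klhdc4 (0.068) and Pcbp1 (0.07), but these members varied little over the libraries, by 0.33 and 0.23.

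The other genes of the BMP and activin pathway changed in both directions. Over all genes tested, 25.5% were called at 24 h against 0 h, 31.6% at 48 h against 0 h and 21.3% from 24 h to 48 h. Of 72 listed, 59 were tested at 24 h against 0 h, of which 20 were higher and 11 lower, with a median log2 fold change of 0.27. At 48 h against 0 h, 24 of 62 were higher and 11 lower, and from 24 h to 48 h 13 of 59 were higher and 9 lower. These last 22 calls were 13 without replicate 1 at 48 h, 14 without replicate 3 at 48 h and 11 with all 9 libraries in 1 fit. Among other antagonists and modulators, the 5 of 11 tested that were called at 24 h were all higher, led by Bmper (2.92, edgeR adjusted p = 0.00039), which binds BMPs outside the cell, and Chrdl1, a chordin relative (2.63, adjusted p = 5e-04). The rise of Bmper and Chrdl1 stood beside the fall of Chrd itself, and at 48 h their log2 fold changes were 3.34 and 2.79 (edgeR adjusted p = 6.85e-05 and 0.000473). The tolloid protease gene Bmp1, whose product cleaves chordin, rose from 8.02 to 35.3 CPM at 24 h (log2 fold change 2.15, SE 0.12, edgeR adjusted p = 3.61e-05).

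Of the ligands tested, 2 of 10 were higher and 3 lower at 24 h, and the 4 of 9 called from 24 h to 48 h were all lower. The shares over all genes were 25.5% called at 24 h and 12.7% called lower from 24 h to 48 h. Bmp4 fell from 12.1 to 1.92 CPM at 24 h (log2 fold change -2.65, SE 0.22, edgeR adjusted p = 0.000205), and Nodal from 3.10 to 0.479 CPM (-2.65, SE 0.46, adjusted p = 0.00508). Bmp6 fell by 2.31 on the log2 scale by 48 h (SE 0.17, edgeR adjusted p = 0.000101), and by 1.08 between 24 h and 48 h (adjusted p = 0.0012). Amh, a ligand of the same family made by Sertoli cells, had 0 to 4 counts in a 0 h library and rose to 5.79 CPM at 24 h (5.46, SE 0.65, edgeR adjusted p = 0.000967), and fell by 2.83 from 24 h to 48 h (adjusted p = 0.00116). Smaller falls from 24 h to 48 h were called for Gdf11 (-0.50) and Bmp7 (-0.49).

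Of the 11 receptors tested, 1 was higher and 3 lower at 24 h, and 2 were higher from 24 h to 48 h. The latter included Amhr2, the receptor of Amh (1.26, edgeR adjusted p = 0.00423). Amhr2 had been called lower at 24 h (-0.95, edgeR adjusted p = 0.0365), with group means of 2.54, 1.30 and 3.13 CPM. At 48 h against 0 h it was not called (0.31, edgeR adjusted p = 0.343). The shares called over all genes were 25.5% at 24 h and 21.3% from 24 h to 48 h. Of the 12 target genes tested at 24 h, 6 were higher and 3 lower. Id2, an inhibitor of DNA binding induced by BMP, went from 0.85 to 17 and 56.5 CPM (log2 fold change 4.36 at 24 h, SE 0.36, edgeR adjusted p = 0.00018, and 6.08 at 48 h, adjusted p = 2.28e-05). Id1 reached 136 CPM at 48 h from 18.3 CPM (2.89, SE 0.15, edgeR adjusted p = 2.1e-05), while Id4 and Msx2, also BMP targets, changed at 24 h by log2 -2.496 and -2.606 (adjusted p = 3.75e-05 and 0.000165). Id4 then rose by 0.87 from 24 h to 48 h (edgeR adjusted p = 0.0019). Its log2 fold change at 48 h against 0 h was -1.63 (edgeR adjusted p = 9.66e-05). Of the 10 SMAD and ubiquitin ligase genes tested at 48 h against 0 h, 4 were higher and 1 lower, beside 13.0% and 18.5% of all genes. Smad9, a SMAD of the BMP branch, rose by 2.26 at 48 h to 10.7 CPM (SE 0.23, edgeR adjusted p = 0.000421), and by 1.32 from 24 h to 48 h. In the same branch, Smad1 rose by 0.45 at 48 h against 0 h (edgeR adjusted p = 0.0215). Smad5 went from 87.8 to 52.2 CPM (-0.75, edgeR adjusted p = 0.00938). The target Msx1 changed by -1.32 at 24 h (edgeR adjusted p = 0.00887) and rose by 1.27 from 24 h to 48 h (adjusted p = 0.00544). At 48 h against 0 h it was not called (-0.05, edgeR adjusted p = 0.904). The convertase gene Pcsk6 was lower by 1.76 at 24 h and 1.67 at 48 h against 0 h (edgeR adjusted p = 0.00027 and 0.000229).

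**Figure D5:**
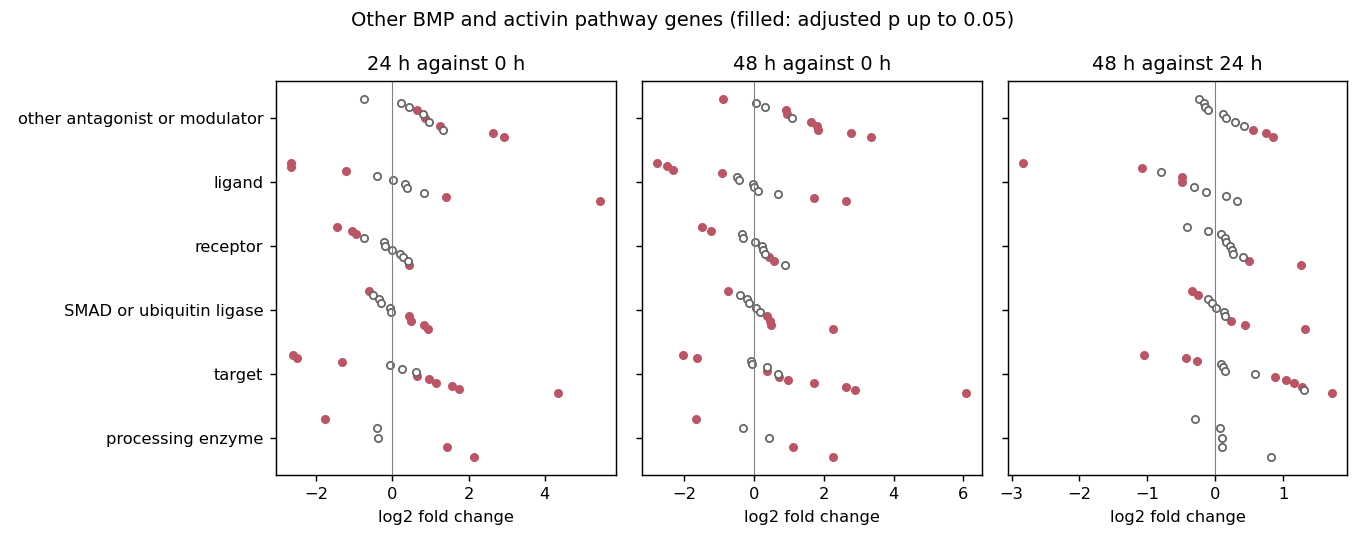
Log2 fold change of the other tested pathway genes by role (rows), one panel for each comparison, x axis in log2 units, with filled points for genes called. Called antagonists lie above 0 at 24 h, called targets lie on both sides, and 20 genes were higher against 11 lower at 24 h. Over all genes tested, 11.4% were higher and 14.2% lower in that comparison.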

How the data were processed

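RNA was measured in 9 libraries, 3 at each of 0 h, 24 h and 48 h, grouped by the labels' titles. The authors deposited counts, the whole number of reads on each Ensembl gene, with no normalization. The submitters' processing notes name fastp, HISAT2, featureCounts and GRCm38, and the counting strand is not given in the sources used here. GENCODE M21 matched 45229 of 46078 identifiers, and the 849 others held 0.101 to 0.121% of each library's counts. 0 columns were left unused.

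For each comparison of 6 libraries, genes passing filterByExpr were TMM-normalized and tested with edgeR 4.0.16 (R 4.3.3), a two-sided quasi-likelihood test with Benjamini-Hochberg adjustment at 0.05. The titles call the replicates biological, but no source used here says how their cultures were separated, so p-values measure the spread between these samples. FPKM used the union of exons. Centred log2 CPM had a prior count of 2. Sequence sharing was measured with windows of 75 bases that BLAST 2.17.0 placed elsewhere at 97% identity. Python 3.11.15 and matplotlib 3.10.9 made the figures. The procedure was tested on simulated data.

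Alternatives were DESeq2 1.42.0, its size factors, library size alone, no filter, a minimum of 10 counts per library, 1 fit over all 9 libraries, a replicate block, and leaving out each library. Offsets for GC content and length (splines with 5 and 4 degrees of freedom) were added after seeing the data. Members, lists and tests were chosen with earlier results of these data known. Named genes were the 9 members, up to 5 rises and 5 falls of the pathway list per comparison (called, not overlapping, at least 1 CPM in 1 group), the 2 genes nearest to each member, and the first 2 and the most abundant of each marker list. 1 gene that this rule names is not reported here.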

Additional observations from a re-analysis of the deposited data

How the results depend on the processing

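Of 214 log2 fold changes recomputed under other settings, 202 kept their direction and their side of the threshold, 5 newly passed it and 7 reversed, and of 162 with 1 library left out the numbers were 158, 1 and 3. The reversed values were all of members not called. For Grem1 at 24 h against 0 h they were 0.11 with library size alone, 0.0011 with no filter, 0.0398 with at least 10 counts in every library and 0.48 without replicate 1 at 0 h (range with a library left out -0.186 to 0.478). The replicate block also reversed Grem1 in that comparison, with the value given below. For Bambi they were -0.15 (24 h against 0 h) and -0.0544 (48 h against 0 h) with GC content and length offsets, and -0.0953 at 24 h without replicate 1 at 0 h (range -0.0953 to 0.232). For Inha from 24 h to 48 h they were 0.0603 with those offsets and 0.196 without replicate 3 at 24 h (range -0.362 to 0.196). Inhba from 24 h to 48 h passed under 5 of 8 other settings, with adjusted p from 0.00165 to 0.371 over them (edgeR, or DESeq2 in 1). Requiring 10 counts dropped Inhba against 0 h. Members called ran from 5 to 6, 6 to 7 and 3 to 4 in the 3 comparisons.

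Pathway genes called from 24 h to 48 h fell from 22 to 11 with all 9 libraries in 1 fit and ran from 13 to 24 with a library left out (13 without replicate 1 and 14 without replicate 3 at 48 h). Over all genes, that fit called 1043 against 3732, and leaving out a library gave 2607 to 6023, 3471 to 7116 and 1857 to 4356, lowest without replicate 2 at 24 h in the first comparison and without replicate 1 at 48 h in the others. Scaling by library size alone put the overall median at 0.12 and 0.13 against 0 h and moved the share of higher calls from 44.5% to 57.1% and from 41.2% to 52.8%. From 24 h to 48 h GC content and length offsets moved it from 40.4% to 51.8%, and 1 fit of all libraries to 27.3%.

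Deviations of same-numbered replicates from their group means had correlations of -0.36 to 0.26. With 3 libraries in a group, such values cannot show whether same-numbered libraries were paired. With the replicate block, Grem1 at 24 h against 0 h reversed to 0.0859. In the 3 comparisons 3007, 4013 and 2497 genes were called, and no call of a member changed. The causes of these shifts were not tested. Depth limits Nog and the 0 h levels of Inha and Inhba, which rest on 0 to 32 counts.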
